A study of Mus musculus with 12 samples.

Results

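The striatum on the unlesioned side of the brain was compared between mice that had received L-DOPA once and mice that had received it daily for 9 days. The 6 unlesioned libraries out of the 12 of the series were taken by their labels, with 3 libraries after acute L-DOPA (1 dose) and 3 after chronic L-DOPA (9 daily doses). This part of the series and the gene lists were chosen with earlier results of these data known. The share of a list that was called is thus no independent evidence. All mice were C57BL/6J and carried a unilateral lesion made by injecting 6-OHDA, a toxin of catecholamine neurons, into the right medial forebrain bundle under desipramine, which spares noradrenergic neurons. L-DOPA was given at 10 mg/kg with 7.5 mg/kg benserazide, an inhibitor of peripheral decarboxylation, and striatal punches were taken 1 h after the only or the last dose. The unlesioned side kept its dopamine innervation, but it belonged to a lesioned brain, and no saline-treated library was analysed here, so each value compares 9 doses with 1 and not L-DOPA with no L-DOPA. The series text counts 12 mice for the 12 libraries, 3 per condition, whereas the study's design lets each mouse serve as its own control, and the labels do not say which holds for these libraries. The day of dissection and library preparation is not given for either treatment, so a batch that followed treatment cannot be told apart from the number of doses. Mice were allowed 2 weeks to recover from the lesion before the experiments. By that schedule, time since the lesion and the number of injections also went with the number of doses and cannot be told apart from it. RNA abundance was measured as read counts per annotated transcript, and the transcript with the most reads stood for its gene, which left 20297 gene symbols tested of 52169 in the table.

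L-DOPA is turned into dopamine by aromatic L-amino acid decarboxylase and acts in the striatum on medium spiny neurons, which carry either the D1 receptor, coupled to cAMP production and the Erk pathway, or the D2 receptor, which opposes cAMP production. Signals through these pathways switch on immediate early genes within minutes to hours, and many of these encode transcription factors of the Fos, Egr and Nr4a families. In the dopamine-depleted striatum this response is known to be exaggerated and to change with repeated dosing, and the intact side is commonly read beside it as the reference.

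Counts summed over one transcript per gene ranged from 22065670 to 36493940 in the 6 libraries, and 3 counts, taken here as the floor, corresponded to 0.0822 to 0.136 CPM, the usual scaling of counts to library size. Striatal identity was clear in every library, with summed levels of 13 genes of medium spiny neurons between 10120 and 12326 CPM. One library stood apart before any test. The choroid plexus marker Ttr, which encodes transthyretin, was counted at 3.48, 2.04 and 1.45 CPM after 1 dose and at 7.17, 2161 and 3.83 CPM after 9 doses, so chronic replicate 2 stood far above the other 5 libraries in this choroid plexus RNA. The summed level of 20 choroid plexus genes was 200.5, 3363 and 238 CPM in chronic replicates 1, 2 and 3, against 299, 283 and 273 CPM after 1 dose. Genes of meninges were also highest there, with sums of 42.5, 145 and 38.7 CPM in the same order, against 65.7, 58.4 and 53.4 CPM after 1 dose. Of the choroid plexus genes, 1 of 11 was called with all 6 libraries, higher, and without chronic replicate 2 there were 4 of 12 higher and 1 lower (33.3% higher, against 5.35% of all genes). Those higher held Ttr, with a log2 fold change of 1.19 (adjusted p = 0.0456), and Kl, which encodes klotho, with 1.51 (adjusted p = 0.00117), so leaving out that library did not remove every change of these markers, and their part in the results below was not tested. Counts without chronic replicate 2 stand beside those with all libraries for the lists the results turn on. Of 12 meningeal genes, 0 were called by edgeR or DESeq2 with all 6 libraries (2 at an unadjusted p below 0.05) and 4 were lower without chronic replicate 2 (33.3%, against 5.45%).

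Genes were called in both directions between chronic and acute L-DOPA in the unlesioned striatum, with more lower than higher after 9 doses and most of the called changes below 2-fold. With all 6 libraries, edgeR's quasi-likelihood test called 545 of 20297 genes at a Benjamini-Hochberg adjusted p below 0.05 (2.69%), 220 higher (1.08%) and 325 lower (1.6%) after 9 doses. The median size of a called change was 0.55 on the log2 scale, 250 of the 545 genes changed at least 1.5-fold, and 83 changed at least 2-fold. The groups did not overlap in any of the 545 genes, against 26.6% of all genes tested. A call with 3 libraries per group favours such genes, so the lack of overlap adds no support to the calls. Without chronic replicate 2, 2238 of 20722 genes were called (10.8%), 1109 higher (5.35%) and 1129 lower (5.45%), and these held all 545 with the same sign. Leaving out any other library took the count the other way, to 11 and 12 genes without acute replicates 1 and 2, 67 without acute replicate 3, and 71 and 21 without chronic replicates 1 and 3. In bulk tissue, fewer cells of a type and less RNA per cell cannot be told apart, which holds for every change below.

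**Figure D1:**
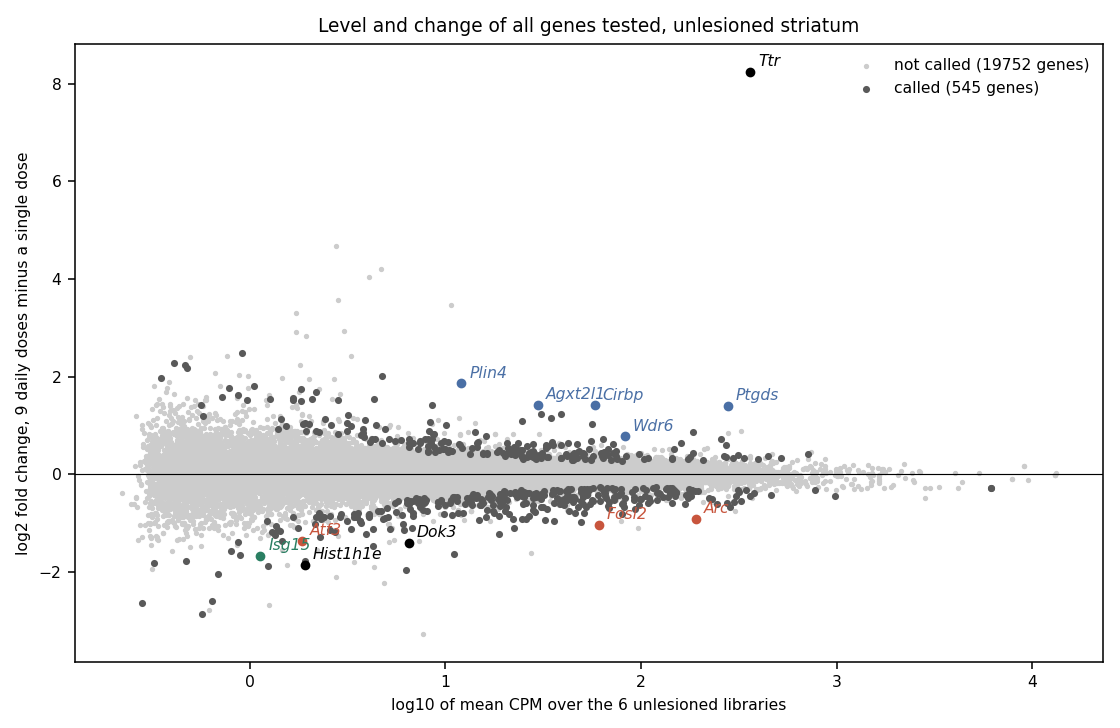
Each point is 1 of the 20297 genes tested, with log10 of the mean CPM over the 6 unlesioned libraries on the horizontal axis and the log2 fold change, 9 doses minus 1, on the vertical axis. The 545 called genes (dark) lie on both sides of 0 over the whole range of levels, and Ttr (log2 fold change 8.24, and 1.19 without chronic replicate 2) was not called with all libraries.

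Among the calls, 8 transcripts kept theirs in each of the 6 fits that left out 1 library, and 3 of them encode Fos family transcription factors. Fos itself was counted at 32.1, 37.9 and 31.8 CPM after 1 dose and at 17.00, 20.2 and 16.4 CPM after 9 doses (log2 fold change -0.92, SE 0.10, adjusted p = 0.00736). Fosb read 39.6, 44.6 and 43.6 CPM against 23.8, 20.4 and 22.02 CPM (log2 fold change -0.95, SE 0.08, adjusted p = 0.00178), and Fosl2 read 83.2, 90.6 and 71.7 CPM against 36.8, 42.8 and 39.9 CPM (log2 fold change -1.04, SE 0.09, adjusted p = 0.00178). All 3 genes stood lower after 9 doses, by 1.89-fold, 1.93-fold and 2.05-fold, with no overlap between the groups. The transcripts counted lie at chr12:86814840-86818223, chr7:19888045-19895394 and chr5:32438845-32460213 of the mm9 build. The same 8 held Rbm28, a nucleolar RNA-binding protein, at 44.2, 52.1 and 46.01 CPM against 25.9, 23.6 and 23.8 CPM (log2 fold change -0.95, SE 0.08, adjusted p = 0.00178). Dok3, an adaptor of immune cell signalling, fell from 8.96, 10.7 and 8.72 CPM to 3.36, 3.73 and 3.51 CPM (log2 fold change -1.42, SE 0.13, adjusted p = 0.00178). Tmem149 fell by 1.47 on the log2 scale, but its transcript overlaps that of U2af1l4 on the same strand, so reads could belong to either gene. Wdr6, which encodes a WD-repeat protein, was the named coding gene that rose in every fit, from 58.3, 62.9 and 63.02 CPM to 101, 105 and 108 CPM (log2 fold change 0.77, SE 0.06, adjusted p = 0.00178), though its transcript overlaps that of Dalrd3 on the opposite strand. The last of the 8, 2900002K06Rik, rose from 1.62, 1.73 and 2.37 CPM to 8.21, 6.82 and 7.89 CPM (log2 fold change 2.01, SE 0.17, adjusted p = 0.00178), and it lies on the strand opposite to Rbm3, described with the cold-inducible genes.

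Immediate early genes were lower after chronic than after acute L-DOPA as far as they were called. Of 57 tested, 14 fell and none rose (24.6% lower, against 1.6% of all genes), and the median log2 fold change was -0.30, against 0.01 over all genes. At an unadjusted p below 0.05, 34 were lower and 0 higher, and DESeq2 called 22 lower and 0 higher. Of all 20297 genes, 4437 were at an unadjusted p below 0.05 in either direction, and DESeq2 called 704 lower. Without chronic replicate 2 edgeR's count was 21 lower and 0 higher (36.8% lower, against 5.45%), and leaving out any other single library gave 3 to 5 lower and 0 higher. The summed level of the 57 genes was 3623, 3608 and 3748 CPM in the 3 acute libraries and 2899, 2926 and 2819 CPM in the 3 chronic libraries, so each chronic library lay below each acute library.

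Among the Fos and Jun partners, Junb fell from 112, 135 and 148 CPM to 90.1, 83.99 and 85.4 CPM (log2 fold change -0.60, SE 0.09, adjusted p = 0.0189). Jun, at 38.4, 36.5 and 31.97 CPM against 25.04, 32.5 and 29.3 CPM, overlapped between groups and was not called (log2 fold change -0.30, adjusted p = 0.141), though without chronic replicate 2 it read -0.39 (adjusted p = 0.0333). Of the Egr zinc finger factors, Egr1 fell from 538, 511 and 542 CPM to 391, 433 and 348 CPM (log2 fold change -0.44, SE 0.08, adjusted p = 0.032), the smallest of the 14 changes. Egr2 fell from 29.9, 31.5 and 35.5 CPM to 16.8, 20.4 and 13.9 CPM (log2 fold change -0.92, SE 0.13, adjusted p = 0.0144), and Egr4 from 109, 108 and 130.2 CPM to 65.2, 79.1 and 67.3 CPM (log2 fold change -0.71, SE 0.10, adjusted p = 0.0144). Nr4a1, an orphan nuclear receptor, fell from 181, 208 and 221 CPM to 129, 155 and 115 CPM (log2 fold change -0.60, SE 0.11, adjusted p = 0.0285). Its relatives Nr4a2 and Nr4a3 were not called with all 6 libraries. Nr4a3 passed the threshold without chronic replicate 2, at -0.33 (adjusted p = 0.047), and Nr4a2 spread from 1.73 to 21.2 CPM within the chronic group alone.

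Arc, whose product regulates AMPA receptor trafficking at synapses, fell from 285, 235 and 229.5 CPM to 122, 162 and 111 CPM (log2 fold change -0.92, SE 0.14, adjusted p = 0.0177). The stress-inducible factor Atf3 was scarce, at 2.46, 3.55 and 2.06 CPM against 0.918, 1.16 and 1.03 CPM, and had the largest change of the 14 (log2 fold change -1.36, SE 0.24, adjusted p = 0.0268). Btg2, an antiproliferative gene, fell from 20.9, 24.2 and 17.7 CPM to 13.02, 8.91 and 12.2 CPM (log2 fold change -0.88, SE 0.15, adjusted p = 0.0235). Gadd45g, a stress sensor, read 17.8, 23.1 and 19.7 CPM against 12.5, 15.4 and 14.1 CPM (log2 fold change -0.52, SE 0.11, adjusted p = 0.0441). Dusp6, the phosphatase that inactivates Erk, fell from 50.9, 54.00 and 54.6 CPM to 37.4, 39.4 and 37.9 CPM (log2 fold change -0.47, SE 0.06, adjusted p = 0.0144). Arl4d, a small GTPase, fell from 77.1, 83.02 and 72.4 CPM to 54.7, 59.3 and 50.2 CPM (log2 fold change -0.50, SE 0.08, adjusted p = 0.0196). As for all 545 called genes, the groups did not overlap in these 14 (26.6% of all genes tested), which calling itself favours and which adds no support. Npas4, an activity-dependent factor of neurons, had lower means after 9 doses but was not called, at 19.4, 21.05 and 16.6 CPM against 15.7, 13.7 and 9.21 CPM (adjusted p = 0.1, and 0.0569 without chronic replicate 2).

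**Figure D2:**
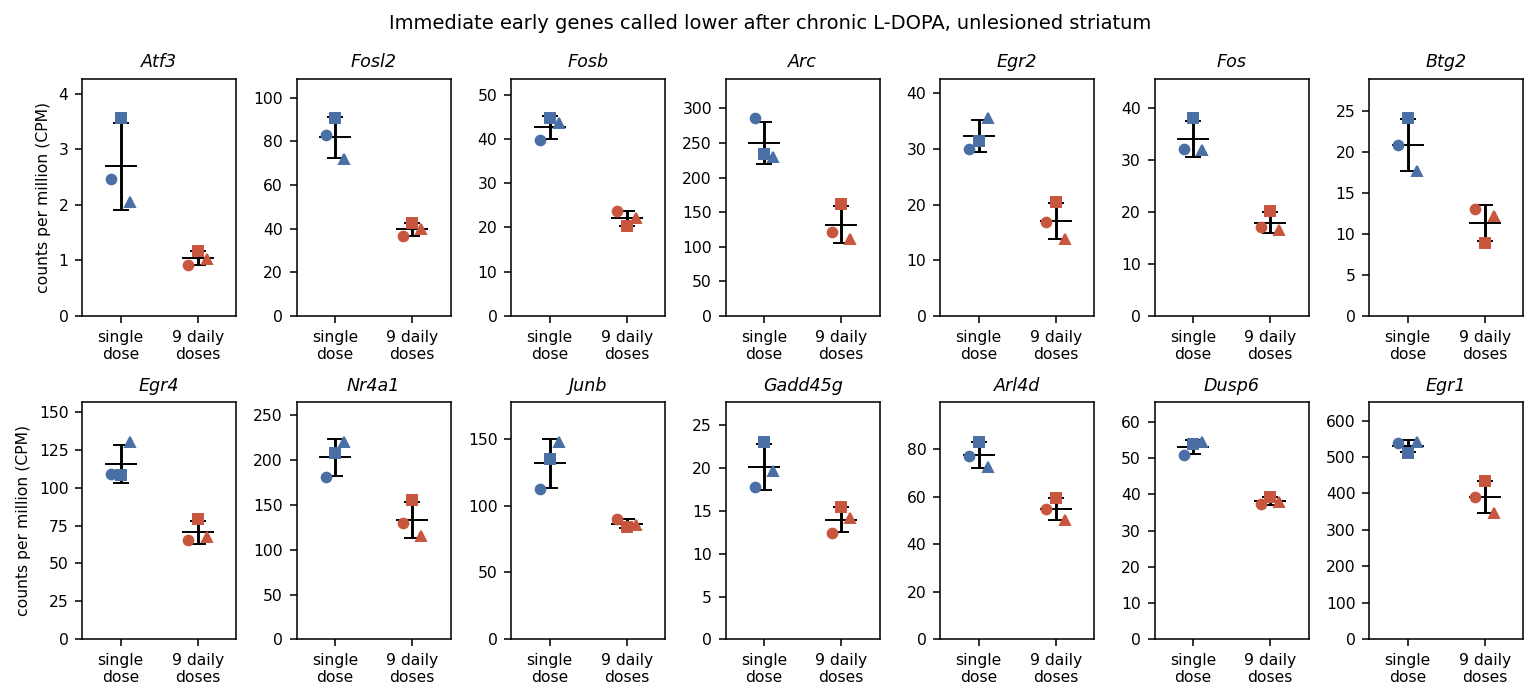
Each panel shows 1 of the 14 immediate early genes called lower, in CPM from 0, after a single dose (blue) and after 9 daily doses (red), with a point per library (circle, square and triangle for replicates 1, 2 and 3), the mean and its SD. In every panel the 3 chronic libraries lie below the 3 acute libraries, from Atf3 (0.918 to 1.16 CPM against 2.06 to 3.55 CPM) to Egr1 (348 to 433 CPM against 511 to 542 CPM).

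Promoter stretches are shown for called immediate early genes because many genes of the class respond through a cAMP response element (CRE, TGACGTCA) or the CArG box, the site of serum response factor. Sequences come from RefSeq's GRCm38.p6, 250 bases before to 50 after the start, searched on both strands, and none of the motifs given here contains another. Capitals mark the match.
Btg2: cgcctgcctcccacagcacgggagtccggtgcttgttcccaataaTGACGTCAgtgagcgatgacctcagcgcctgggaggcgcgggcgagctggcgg
Arl4d: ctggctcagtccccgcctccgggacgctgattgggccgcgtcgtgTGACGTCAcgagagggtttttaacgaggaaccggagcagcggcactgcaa
Egr2: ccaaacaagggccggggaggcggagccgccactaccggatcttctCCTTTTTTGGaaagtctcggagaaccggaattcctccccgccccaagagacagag
They lie at chr1:134079269-134079366 (minus strand), chr11:101665470-101665564 and chr10:67537449-67537548 (both plus strand), with the CRE of Btg2 166 to 159 bases and that of Arl4d 26 to 19 bases before the start, and the CArG box of Egr2 72 to 63 bases before it. A CRE was present in 5 of the 44 immediate early genes that had an entry (11.4%) and in 2 of the 12 called ones, against 1.79% of all 32851 promoters and 3.51% of the 10784 tested genes with an entry. A CArG box was present in 4 of the 44 and in 1 of the 12, against 1.63% of all promoters. Arc and Egr1 had no entry.

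Some genes of protein folding were called, all lower. Among 25 heat shock chaperones and their regulators, 5 fell and none rose (20.0% lower, against 1.6% of all genes), with a median log2 fold change of -0.39. Among 25 genes of the endoplasmic reticulum stress response, 6 fell and none rose, with a median of -0.31. Without chronic replicate 2, which lay between the acute libraries and the other chronic libraries for many of them, 14 of 25 in each list were lower and 0 were higher (56.0% each, against 5.45%). Leaving out any other single library gave 0 to 3 lower in the heat shock list and 0 to 4 in the endoplasmic reticulum list. DESeq2 called 9 and 12 lower and 0 higher, against 704 of all 20297 genes lower. At an unadjusted p below 0.05 edgeR had 19 and 16 lower and 0 higher, against 4437 of all genes in either direction. The summed levels were 3973, 3599.5 and 3136 CPM for the heat shock list after 1 dose and 2632, 3089 and 2634 CPM after 9 doses. For the endoplasmic reticulum list they were 2851, 2764 and 2382 CPM and 1954, 2254 and 1941 CPM. Both sums separated the groups, but acute replicate 3 was the lowest acute library and chronic replicate 2 the highest chronic one, so the gap between groups was narrow.

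Hsf1, the heat shock transcription factor itself, fell from 33.03, 36.1 and 33.7 CPM to 21.8, 24.04 and 20.8 CPM (log2 fold change -0.62, SE 0.08, adjusted p = 0.0139). Chordc1, a partner of Hsp90, fell from 78.2, 69.8 and 49.9 CPM to 30.6, 39.8 and 30.00 CPM (log2 fold change -0.98, SE 0.16, adjusted p = 0.0206). Hsph1, a large chaperone of the Hsp110 family, fell from 418, 351 and 279.6 CPM to 199.9, 248 and 212 CPM (log2 fold change -0.67, SE 0.14, adjusted p = 0.0371). The Hsp90 co-chaperone Ahsa1 fell by 0.43 on the log2 scale (SE 0.10, adjusted p = 0.0479). Dnajb5, an Hsp40 protein, fell from 166, 172 and 181 CPM to 121, 126 and 131 CPM (log2 fold change -0.46, SE 0.06, adjusted p = 0.0144) with little spread inside either group. Other chaperones passed edgeR's threshold only when chronic replicate 2 was left out or another setting was used. The small heat shock protein Cryab read 156, 132 and 109 CPM against 39.8, 93.98 and 49.96 CPM, with a log2 fold change of -1.11 (adjusted p = 0.0536) that became -1.56 (adjusted p = 0.000466). Hspa1a, the inducible Hsp70, ran from 14.4, 4.52 and 1.42 CPM to 0.743, 3.69 and 1.13 CPM with overlapping groups and was called in neither fit.

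In the endoplasmic reticulum, Xbp1, the transcription factor of the unfolded protein response, fell from 126, 129 and 102 CPM to 74.7, 88.4 and 65.6 CPM (log2 fold change -0.64, SE 0.12, adjusted p = 0.0287). Calr, the calcium-binding chaperone calreticulin, fell from 345, 348 and 295 CPM to 195, 254 and 209 CPM (log2 fold change -0.59, SE 0.11, adjusted p = 0.0268). Pdia6, a protein disulphide isomerase, fell from 105, 101 and 83.7 CPM to 58.8, 70.4 and 60.7 CPM (log2 fold change -0.61, SE 0.10, adjusted p = 0.0205). The secreted factor Manf, its fellow stress gene Creld2 and the ubiquitin ligase Syvn1 fell by 0.61, 0.58 and 0.31 on the log2 scale. Hspa5, the main chaperone BiP, read 443, 413 and 280.1 CPM against 192, 275 and 204 CPM and just missed the threshold (log2 fold change -0.76, adjusted p = 0.051), while without chronic replicate 2 it read -0.93 (adjusted p = 0.00606). For Hspa5, chronic replicate 2 at 275 CPM lay just under acute replicate 3 at 280.1 CPM.

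Promoter stretches of called folding genes are shown with the heat shock element (HSE, GAA NN TTC NN GAA) or the endoplasmic reticulum stress element (ERSE, CCAAT and CCACG with 9 bases between them) in capitals.
Chordc1: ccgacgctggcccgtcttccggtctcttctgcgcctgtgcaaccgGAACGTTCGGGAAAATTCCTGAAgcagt
Pdia6: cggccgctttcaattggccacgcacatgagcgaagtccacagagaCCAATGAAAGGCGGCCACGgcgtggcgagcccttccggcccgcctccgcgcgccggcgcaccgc
Calr: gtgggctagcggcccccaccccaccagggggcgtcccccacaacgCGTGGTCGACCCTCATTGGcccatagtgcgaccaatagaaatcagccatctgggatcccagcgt
They lie at chr9:18292218-18292290 and chr12:17266446-17266554 on the plus strand and chr8:84847030-84847138 on the minus strand of GRCm38.p6. In Chordc1, 3 overlapping matches ran from 4 bases before to 19 after the start, and the ERSE of Pdia6 lay 98 to 80 bases before the start. The ERSE of Calr, 162 to 144 bases before its start, was read on the other strand. An HSE was present in 4 of 20 heat shock genes with an entry (20.0%) and in 2 of the 4 called ones, Chordc1 and Hsph1, against 0.603% of all promoters. An ERSE was present in 8 of 22 endoplasmic reticulum genes (36.4%) and in 4 of the 5 called ones, namely Calr, Creld2, Pdia6 and Syvn1, against 0.119% of all promoters. Hsf1 and Manf had no entry.

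Of 2 cold-inducible RNA-binding proteins, 1 was called higher with all 6 libraries (against 1.08% of all genes). Both were called higher without chronic replicate 2 (against 5.35%). Cirbp rose from 25.6, 30.4 and 39.6 CPM to 98.7, 68.5 and 84.9 CPM, a 2.65-fold difference (log2 fold change 1.41, SE 0.16, adjusted p = 0.00902), and chronic replicate 2 was again the chronic library nearest to the acute ones. The transcript spans chr10:79630523-79634400 of mm9, and its call was lost in 1 of the 6 fits that left out a library (largest adjusted p = 0.0561). Its relative Rbm3 read 7.18, 7.52 and 11.7 CPM against 15.8, 12.4 and 17.2 CPM and was not called (log2 fold change 0.79, adjusted p = 0.0539), though without chronic replicate 2 it read 0.92 (adjusted p = 0.0104). The called transcript 2900002K06Rik at chrX:7722555-7725084 overlaps 1 end of Rbm3 on the opposite strand, and the library kit does not mark strand, so reads from the stretch they share cannot be told apart.

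The interferon-stimulated and MHC class I genes that were called were lower after chronic L-DOPA. Of 31 tested, 8 fell and none rose (25.8% lower, against 1.6% of all genes), and the median log2 fold change was -0.47. Without chronic replicate 2 the count was 15 lower and 0 higher (48.4% lower, against 5.45%). DESeq2 called 10 lower and 0 higher, against 704 of all 20297 genes lower. At an unadjusted p below 0.05 edgeR had 18 lower and 0 higher, against 4437 of all genes in either direction. Leaving out a single library other than chronic replicate 2 gave 0 or 1 lower. Most of these transcripts were scarce, and the summed level of the 33 found in the table was 267, 280.1 and 277 CPM after 1 dose and 191, 226 and 202 CPM after 9 doses. Irf7, the factor that amplifies type I interferon production, fell from 2.996, 3.24 and 3.51 CPM to 1.22, 1.12 and 1.61 CPM (log2 fold change -1.28, SE 0.19, adjusted p = 0.0178). Isg15, a ubiquitin-like modifier, fell from 1.81, 1.35 and 2.06 CPM to 0.3495, 0.682 and 0.579 CPM (log2 fold change -1.67, SE 0.28, adjusted p = 0.0233). The antiviral genes Oasl2 and Rsad2 fell from 3.75, 4.28 and 3.296 CPM to 1.75, 1.61 and 1.64 CPM (log2 fold change -1.18, SE 0.17, adjusted p = 0.0161) and from 1.67, 1.898 and 2.37 CPM to 0.743, 1.003 and 0.869 CPM (log2 fold change -1.17, SE 0.23, adjusted p = 0.032). These 4 genes lay between 0.3495 and 4.28 CPM, above the floor of 3 counts in every library but with few reads behind each value. Ifit3 and Ifitm3, which restrict viral RNA and entry, fell by 0.97 and 0.88 on the log2 scale. The more abundant light chain of MHC class I, B2m, fell from 69.6, 64.6 and 65.1 CPM to 39.1, 49.96 and 40.5 CPM (log2 fold change -0.62, SE 0.09, adjusted p = 0.0189), and the heavy chain gene H2-D1, which belongs to a family of near-identical copies and is uncertain for that reason, fell by 0.47.

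Promoter stretches of called interferon genes are shown because the class is known for the interferon-stimulated response element, searched here as GAAA NN GAAA and printed in capitals.
Isg15: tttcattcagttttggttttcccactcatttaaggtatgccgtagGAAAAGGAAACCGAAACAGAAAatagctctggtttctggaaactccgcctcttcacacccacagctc
Rsad2: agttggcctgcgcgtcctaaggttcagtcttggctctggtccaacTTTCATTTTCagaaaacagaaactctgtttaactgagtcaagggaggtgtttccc
They lie at chr4:156200830-156200941 and chr12:26456518-26456617, both on the minus strand of GRCm38.p6. Isg15 held 3 overlapping matches, 78 to 57 bases before the start, and Rsad2 held 1 on the other strand, 120 to 111 bases before it. The motif was present in 14 of the 27 listed genes with an entry (51.9%) and in 5 of the 8 called ones, against 3.44% of all promoters and 3.51% of tested genes.

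Some glial markers were called, those of microglia most often with all 6 libraries. Of 16 microglial genes, 5 fell and none rose (31.2% lower, against 1.6% of all genes), with a median log2 fold change of -0.39, and their summed level was 724, 697 and 724 CPM after 1 dose and 463, 587 and 596 CPM after 9 doses. The complement genes C1qa and C1qb fell, C1qa from 52.8, 54.5 and 55.3 CPM to 33.6, 40.3 and 40.04 CPM (log2 fold change -0.51, SE 0.08, adjusted p = 0.0193) and C1qb by 0.54 on the log2 scale. Tmem119, a microglial surface marker, fell from 29.1, 31.02 and 30.2 CPM to 15.7, 21.9 and 21.1 CPM (log2 fold change -0.61, SE 0.11, adjusted p = 0.0283), and the lysosomal protease gene Ctss fell by 0.47. Without chronic replicate 2, 8 of the 16 were lower, against 5.45% of all genes, without chronic replicate 1 3 were, and without any of the other libraries 0 were. DESeq2 called 7 lower and 0 higher, against 704 of all 20297 genes lower. At an unadjusted p below 0.05 edgeR had 11 lower and 0 higher, against 4437 of all genes in either direction. The part of microglial RNA in the change of the interferon and MHC list was not tested.

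Counts of called oligodendrocyte genes differed with chronic replicate 2 in or out. Of 15 tested, edgeR called 1 with all 6 libraries, Hapln2, a link protein of the node of Ranvier, which fell from 45.8, 49.4 and 46.97 CPM to 38.1, 36.8 and 36.1 CPM (log2 fold change -0.35, SE 0.07, adjusted p = 0.0287). DESeq2 called 3 lower and 0 higher, against 704 of all 20297 genes lower. At an unadjusted p below 0.05 edgeR had 7 lower and 0 higher, against 4437 of all genes in either direction. Without chronic replicate 2, edgeR had 12 of 15 lower and 0 higher (80.0%, against 5.45%). Mag, myelin-associated glycoprotein, is an example, at 257, 264 and 269 CPM against 139, 245 and 165 CPM, where chronic replicate 2 was the chronic library nearest to the acute group (log2 fold change -0.52 with all libraries, -0.79 without it). Ugt8a, which makes the myelin lipid galactosylceramide, read 114, 100.5 and 99.9 CPM against 33.2, 77.8 and 49.7 CPM (log2 fold change -0.96, SE 0.23, adjusted p = 0.0546), and without the library -1.33 (adjusted p = 0.000624). The summed marker level was 12199, 11589 and 10860.0 CPM after 1 dose and 8302, 11903 and 8684 CPM after 9 doses, so the groups overlapped through that 1 library. Of 8 genes of oligodendrocyte precursors, Olig2 fell from 31.04, 41.9 and 35.98 CPM to 15.4, 24.1 and 23.8 CPM (log2 fold change -0.77, SE 0.16, adjusted p = 0.0372) and Gpr17 fell by 0.47 on the log2 scale, and 4 of the 8 were lower without chronic replicate 2, against 1.6% and 5.45% of all genes in those fits. Among 13 astrocyte genes, the gap junction gene Gja1 fell from 167, 159.6 and 153 CPM to 112, 130.3 and 122 CPM (log2 fold change -0.39, SE 0.07, adjusted p = 0.0287) and the water channel Aqp4 fell by 0.54, while Gfap overlapped between groups with all 6 libraries (log2 fold change -0.21) and read -0.53 (adjusted p = 0.00358) without chronic replicate 2, where 5 astrocyte genes were lower and 1 higher, against 5.45% and 5.35% of all genes. Of the 13 astrocyte genes, 2 were lower and 0 higher with all 6 libraries, against 1.6% and 1.08% of all genes. Their median log2 fold change was -0.07, with 7 of the 13 below 0. Their summed level overlapped between the groups, at 3878.5, 3612 and 3745 CPM after 1 dose and 3558, 3735 and 4054.5 CPM after 9 doses. Markers of vessels, blood and neighbouring regions were also counted. Of 17 genes of endothelium and mural cells 1 was higher, the transporter Slco1a4 (log2 fold change 0.59), and 1 lower, vitronectin, encoded by Vtn (log2 fold change -0.52), with the same counts without chronic replicate 2 (5.88% each way, against 1.08% and 1.6% with all libraries and 5.35% and 5.45% without it). Blood genes summed to 21.00, 43.8 and 21.1 CPM after 1 dose and 8.78, 21.4 and 16.4 CPM after 9 doses, and genes of septum, pallidum and thalamus to 133, 132 and 141 CPM and 154, 199.8 and 160.3 CPM, so blood markers overlapped between the groups and the regional markers did not. With all 6 libraries, edgeR called 0 of 5 blood genes and 0 of 12 regional genes. At an unadjusted p below 0.05 it had 4 blood genes lower and 5 regional genes higher. DESeq2 called 1 blood gene lower and 2 regional genes higher. Without chronic replicate 2, edgeR had the same counts as DESeq2 (20.0% lower, against 5.45%, and 16.7% higher, against 5.35%). The part of these cells and regions in the results above was not tested.

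**Figure D3:**
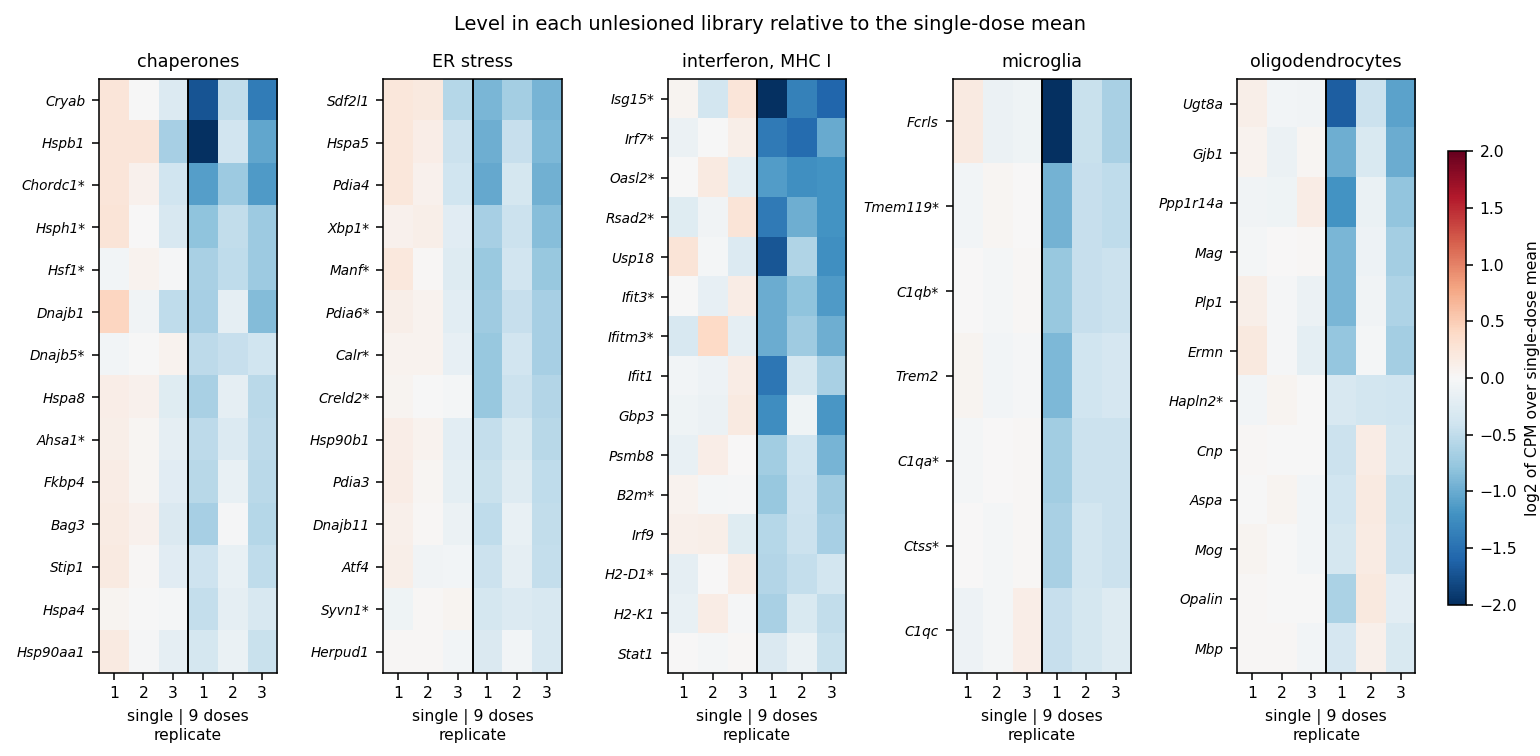
Colour gives log2 of each library's CPM over the mean of the 3 single-dose libraries, for list members called with all 6 libraries (asterisk) or without chronic replicate 2, less 1 microglial gene not drawn, with single-dose replicates 1 to 3 left and 9-dose replicates 1 to 3 right of the line in each panel. Chronic replicates 1 and 3 are blue for almost every gene, while chronic replicate 2 is paler among the chaperones and near or above 0 for several oligodendrocyte genes such as Mbp, at 3674, 5004 and 3774 CPM in the 3 chronic libraries.

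Neuronal identity and dopamine signalling lists held few calls. Of 44 genes of dopamine and cAMP signalling, 1 rose and 1 fell (2.27% each, against 1.08% and 1.6%). With chronic replicate 2 left out, 3 rose and 4 fell (6.82% and 9.09%, against 5.35% and 5.45% of all genes). Drd2, the D2 receptor, fell from 361, 371 and 412 CPM to 307, 313 and 295 CPM (log2 fold change -0.32, SE 0.07, adjusted p = 0.0456). Drd1a, the D1 receptor, read 327, 299.7 and 323 CPM against 361, 315 and 329.6 CPM and was not called (log2 fold change 0.09, adjusted p = 0.539). Ppp1r1b, which encodes DARPP-32, the phosphatase inhibitor downstream of the D1 receptor, read 2334, 2596 and 3004 CPM against 2910.0, 2571 and 2626 CPM (log2 fold change 0.04, adjusted p = 0.861). Rasgrf1, a calcium-responsive activator of Ras, rose from 185, 195 and 199 CPM to 258, 428 and 271 CPM (log2 fold change 0.73, SE 0.16, adjusted p = 0.0454), with its highest value in chronic replicate 2 and a log2 fold change of 0.46 without it. Ddc, the decarboxylase that turns L-DOPA into dopamine, read 7.85, 7.21 and 6.66 CPM against 25.04, 11.8 and 11.6 CPM and missed the threshold (log2 fold change 1.15, adjusted p = 0.0521), whereas without chronic replicate 2 it read 1.32 (adjusted p = 0.00963).

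Of 13 general markers of medium spiny neurons, 10 D1 markers and 10 D2 markers, the calls with all libraries were Sfxn1, a mitochondrial carrier used as a D1 marker (log2 fold change -0.37, adjusted p = 0.0372), and Drd2 itself. The summed D1 markers read 1174, 1135 and 1189.8 CPM against 1261, 1084 and 1236 CPM and the summed D2 markers 2672, 2654 and 3060.0 CPM against 2784, 2645 and 2698 CPM, and both overlapped between groups. None of the 14 interneuron markers was called with all libraries by edgeR or DESeq2, and 1 had an unadjusted p below 0.05. Leaving out chronic replicate 2 brought 1 call, Pvalb, which encodes parvalbumin, at 25.9, 20.4 and 23.96 CPM against 13.9, 69.2 and 15.1 CPM. Its log2 fold change was 0.48 with all libraries (adjusted p = 0.624) and -0.69 (adjusted p = 0.00527) without that one. Gad2, which makes GABA, rose from 381, 393 and 394 CPM to 501, 475 and 524 CPM (log2 fold change 0.37, SE 0.06, adjusted p = 0.0253), while Gad1 overlapped between groups (log2 fold change 0.13). Among 28 neuropeptides and their processing genes, 2 rose and none fell (7.14% higher, against 1.08%), and without chronic replicate 2 the count was 4 higher and 0 lower (14.3%, against 5.35%). These were Scg5, a chaperone of the proprotein convertase Pcsk2, from 157, 153 and 156 CPM to 206, 187 and 183 CPM (log2 fold change 0.31, SE 0.07, adjusted p = 0.0441), and the scarce Tac2, which encodes neurokinin B, from 0.999, 0.518 and 0.992 CPM to 2.01, 3.41 and 2.09 CPM (log2 fold change 1.57, SE 0.30, adjusted p = 0.0315). The enkephalin gene Penk read 1592, 1605 and 1828 CPM against 1815, 1670.1 and 1708 CPM and was not called (adjusted p = 0.727). Of 15 cortical markers, Cux2 rose by 0.53 on the log2 scale, and without chronic replicate 2 the count was 2 higher (13.3%, against 5.35%). The summed level of the 16 listed overlapped between the groups at 546, 429 and 429 CPM against 506, 347 and 648 CPM.

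Genes responsive to glucocorticoids and genes of the circadian clock gained calls when chronic replicate 2 was left out, as did the whole table. Of 32 glucocorticoid-responsive genes, Plin4, a lipid droplet coat protein, was called with all libraries and rose from 5.15, 6.52 and 3.97 CPM to 34.2, 8.79 and 14.1 CPM (log2 fold change 1.86, SE 0.42, adjusted p = 0.0479), with chronic replicate 1 far above the rest. In the fit without chronic replicate 2, 6 were higher and 3 lower (18.8% and 9.38%, against 5.35% and 5.45% of all genes). Those higher held Hif3a at 1.07 (adjusted p = 0.00962) and Sult1a1 at 1.25 (adjusted p = 0.00586), and those lower held Cebpd at -1.48 (adjusted p = 0.0435). Of 24 clock genes, Bhlhe40, a repressor of the clock, rose from 62.02, 62.04 and 62.99 CPM to 94.03, 77.7 and 88.6 CPM (log2 fold change 0.48, SE 0.08, adjusted p = 0.0196), and without chronic replicate 2 the count was 5 higher and 0 lower (20.8% higher, against 5.35%), with Npas2 at 0.38 (adjusted p = 0.0103) and Nr1d1 at 0.30 (adjusted p = 0.0288). As the kit does not mark strand, overlaps with genes on the opposite strand leave reads uncertain for Nr1d1 (Thra), Plin4 (Hdgfrp2), Sult1a1 (Ccdc101), Drd2 (Ankk1), Gpr17 (Lims2) and Pdia6 (Atp6v1c2), and other named genes overlap cDNA clones or gene models. The hour of killing is not given for either group in the sources used here.

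Several lists held no call with all 6 libraries. None of 79 subunits of oxidative phosphorylation, 31 Polycomb genes, 28 synaptic vesicle genes or 10 ependymal genes was called by edgeR with all 6 libraries, and without chronic replicate 2 these counts were 3 of 81, 2 of 31, 5 of 28 and 0 of 10, against 10.8% of all genes. At an unadjusted p below 0.05 edgeR had 14, 5, 9 and 0 of them, and DESeq2 called 3, 1, 2 and 0, beside 4437 and 1217 of all 20297 genes. Of 82 cytosolic ribosomal proteins, Rpl27a was called, at 30.8, 27.4 and 27.4 CPM against 20.3, 21.2 and 21.3 CPM (log2 fold change -0.44, SE 0.08, adjusted p = 0.0253). Jarid2, an accessory subunit of Polycomb repressive complex 2, read 42.4, 40.1 and 37.7 CPM against 50.1, 46.5 and 58.6 CPM, with a log2 fold change of 0.37 (adjusted p = 0.061) that became 0.44 (adjusted p = 0.0106) without chronic replicate 2. The synaptic genes called in that fit were all higher, among them the active zone scaffold Pclo at 0.58 (adjusted p = 0.0283) and the calcium sensor Syt1 at 0.25 (adjusted p = 0.037). In sterol synthesis, Sc4mol, a methylsterol oxidase, fell from 75.8, 68.3 and 76.6 CPM to 44.8, 57.9 and 47.6 CPM (log2 fold change -0.55, SE 0.10, adjusted p = 0.0253), while Lss, lanosterol synthase, rose by 0.38 on the log2 scale, and without chronic replicate 2, 4 of the 26 sterol genes were lower (15.4%, against 5.45%) and 1 higher (3.85%, against 5.35%).

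**Figure D4:**
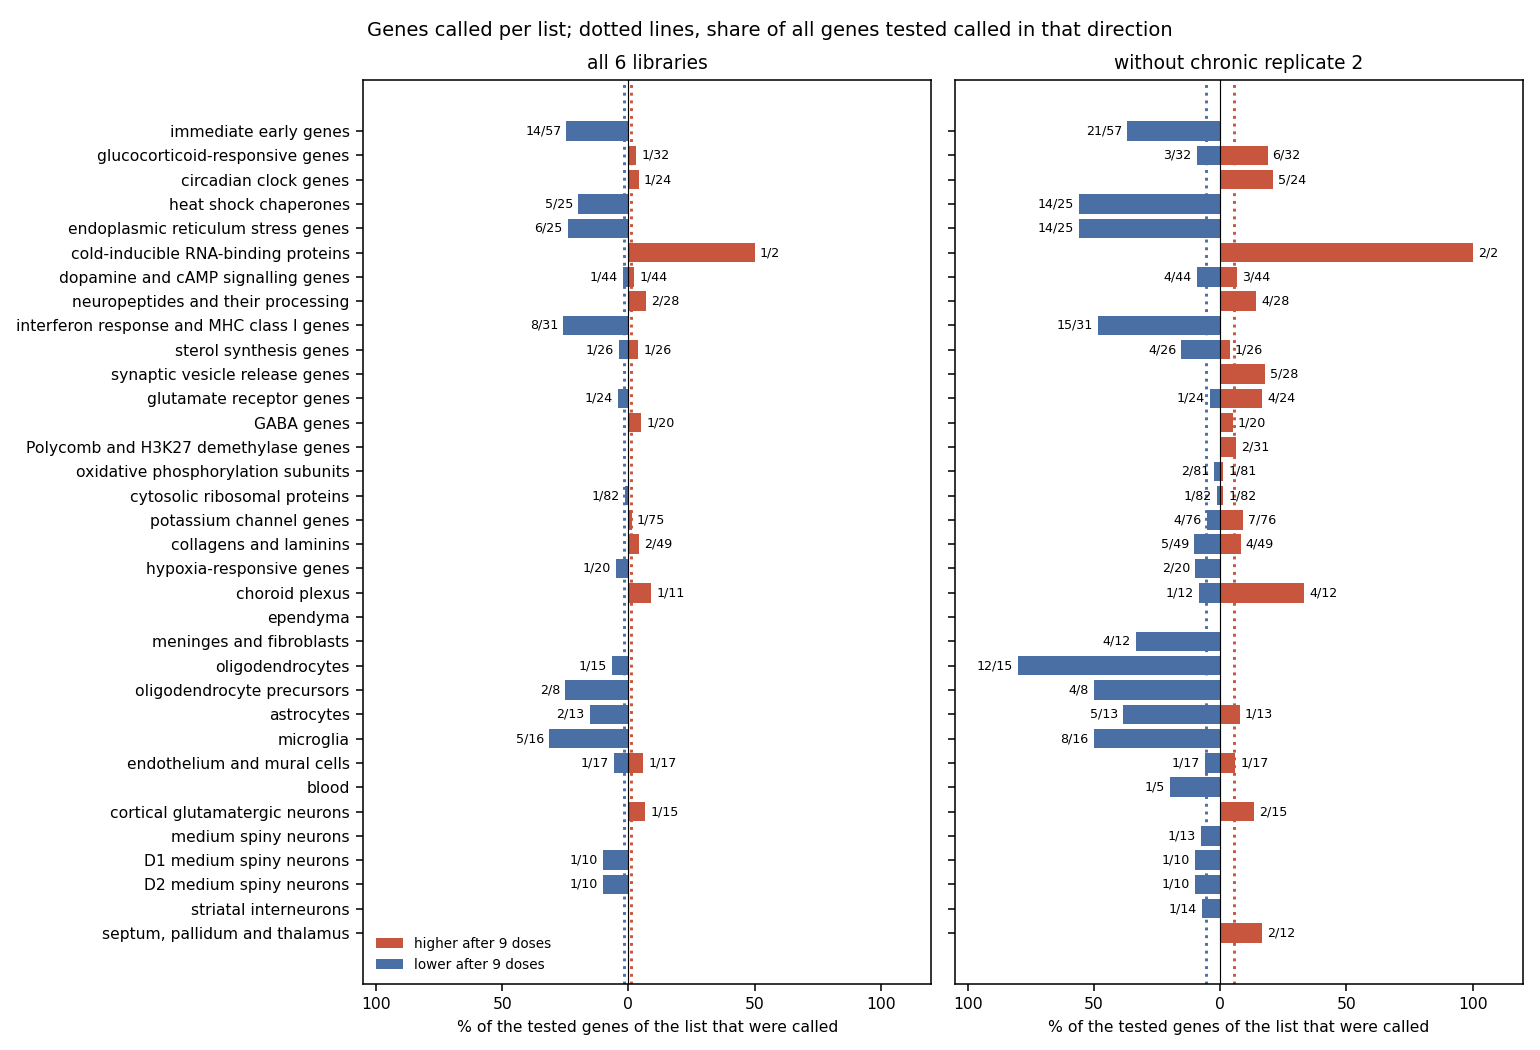
Bars give the percentage of each list's tested genes called higher (red, right) or lower (blue, left) after 9 doses, with the counts beside them, for all 6 libraries and without chronic replicate 2, and the dotted lines mark the share of all genes tested called in that direction. Immediate early genes (14 of 57), chaperones (5 of 25), endoplasmic reticulum stress genes (6 of 25) and interferon genes (8 of 31) extend left only, and oligodendrocyte genes go from 1 to 12 of 15 between the panels.

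Further called genes were named by the size of their change or, for Col25a1 and P4ha1, from the lists of collagens and laminins (2 of 49 higher, 0 lower) and of hypoxia-responsive genes (1 of 20 lower, 0 higher), against 1.08% higher and 1.6% lower of all genes. Leaving out chronic replicate 2 gave 4 higher and 5 lower collagens and laminins (8.16% and 10.2%) and 2 lower hypoxia genes (10.0%). In that fit 5.35% of all genes were higher and 5.45% lower. Among rises, Ptgds, prostaglandin D synthase of meninges and oligodendrocytes, went from 149, 166 and 145 CPM to 588, 339 and 277 CPM (log2 fold change 1.39, SE 0.23, adjusted p = 0.0196), and its value in chronic replicate 2 was not the highest. Agxt2l1, a phosphoethanolamine phospholyase, rose from 16.8, 16.6 and 14.99 CPM to 59.6, 33.1 and 36.8 CPM (log2 fold change 1.42, SE 0.19, adjusted p = 0.0144). The collagen Col25a1 rose from 26.4, 26.3 and 29.3 CPM to 45.8, 35.6 and 47.7 CPM (log2 fold change 0.66, SE 0.11, adjusted p = 0.0205). Scarcer genes among the rises were Spink8, Gabrr2, Slc26a8 and Klhl35, up by 1.81, 1.74, 1.53 and 1.51 on the log2 scale, each with its acute libraries at 1.03 CPM or below. Clic6, a chloride channel protein of the choroid plexus, rose by 1.24, and without chronic replicate 2 by 0.75. The zinc finger gene Zkscan16 rose from 22.3, 22.7 and 24.9 CPM to 63.8, 36.6 and 63.4 CPM (log2 fold change 1.23, SE 0.18, adjusted p = 0.0163).

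Among the falls, the histone gene Hist1h2be went from 12.6, 9.32 and 8.01 CPM to 1.704, 4.17 and 1.87 CPM (log2 fold change -1.96, SE 0.30, adjusted p = 0.0189), and Hist1h1e, whose transcript overlaps it on the same strand and so can share its reads, fell by 1.87. Gch1, GTP cyclohydrolase, which makes the cofactor of tyrosine hydroxylase, fell from 3.27, 3.73 and 1.95 CPM to 0.699, 0.923 and 0.966 CPM (log2 fold change -1.77, SE 0.27, adjusted p = 0.0189). Apold1, an endothelial gene of early response, fell from 16.6, 23.9 and 9.96 CPM to 5.07, 5.46 and 5.601 CPM (log2 fold change -1.64, SE 0.26, adjusted p = 0.0196). Rnf125, a ubiquitin ligase, fell by 1.26. P4ha1, a collagen prolyl hydroxylase, fell from 99.3, 80.6 and 74.9 CPM to 46.3, 64.3 and 47.5 CPM (log2 fold change -0.69, SE 0.14, adjusted p = 0.0351). Of all called genes 118 were cDNA clones or gene models, which are counted but, with the exception of 2900002K06Rik, not named.

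Direction varied with transcript length. The median log2 fold change was -0.04 for the 596 tested transcripts of up to 500 bases and 0.14 for the 695 transcripts above 8000 bases, of which 23 were called higher and 3 lower. With chronic replicate 2 left out, 159 of 699 such transcripts were called higher and 11 lower, with a median of 0.18, and 339 and 225 of the 4483 between 4000 and 8000 bases. With the smooth trend over length removed, an alternative chosen after seeing the data, 612 genes were called, 214 higher and 398 lower. Beyond that fit, the part of transcript length in the results above was not tested.

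The change of the unlesioned striatum was then set against that of the lesioned striatum by a test of the difference itself over all 12 libraries. On the lesioned side 4909 of 19788 genes were called (24.8%), and the difference of the changes was called for 1050 of 20663 genes (5.08%). Of these, 42 were also called in the unlesioned comparison, which is 7.71% of the 545 called there, beside 5.08% of all genes. Libraries of the 2 sides with the same number were not treated as paired, and a fit that did so called 2750. Leaving out 1 library moved the 1050 to between 691 (without acute unlesioned replicate 3) and 1640 (without chronic lesioned replicate 2), and the fit with no filter on low counts called 1906. Of 57 immediate early genes, 26 had a higher and 3 a lower change on the lesioned than on the unlesioned side, against 3.6% and 1.49% of all genes. Fosl2 is an example, with a difference of 0.89 (SE 0.20, adjusted p = 0.0172), and Junb another, with 0.67 (SE 0.14, adjusted p = 0.012). On the lesioned side Fosl2 read 455, 418 and 365 CPM after 1 dose and 385, 446 and 285 CPM after 9 doses, so that it fell on the unlesioned side and was not called on the other (log2 fold change -0.15). For Fosb the difference was not called at 0.28 (SE 0.11, adjusted p = 0.152), and its lesioned log2 fold change was -0.67 beside -0.95. Dusp6 and Arl4d went further down on the lesioned side, at -1.66 and -1.67 on the log2 scale, with differences of -1.19 (SE 0.20, adjusted p = 0.00262) and -1.17 (SE 0.17, adjusted p = 0.000818). Dnajb5 had opposite signs, -0.46 on the unlesioned and 1.40 on the lesioned side, with a difference of 1.86 (SE 0.11, adjusted p = 1.89e-07). Gad2 rose on both sides and more on the lesioned one, with a difference of 0.97 (SE 0.10, adjusted p = 3.88e-05).

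The other lists varied in how often the difference was called. It was called with a higher change on the lesioned side for 15 of 26 genes of sterol synthesis. It was higher for 5 of 10 D1 markers, 7 of 28 neuropeptides and their processing genes and 5 of 28 synaptic vesicle genes, and lower for 3 of 10 D2 markers, against 3.6% higher and 1.49% lower of all genes. For Drd1a the difference was 0.99 (SE 0.19, adjusted p = 0.00588). The difference was called for 0 of the interferon, microglial and oligodendrocyte members by edgeR and by DESeq2, with 2, 0 and 4 of them at an unadjusted p below 0.05 in edgeR, and the lesioned side had 5 of 31, 13 of 16 and 13 of 15 lower and 0 higher, against 11.7% of all genes called lower there. Cirbp rose by 1.41 on the unlesioned and by 1.47 on the lesioned side, with a difference of 0.06 (SE 0.25, adjusted p = 0.92). Irf7 and Isg15 read -0.58 and 0.45 on the lesioned side, neither called, with differences of 0.70 (SE 0.55, adjusted p = 0.528) and 2.11 (SE 1.03, adjusted p = 0.277). Chronic lesioned replicate 2 stood apart for both, with Isg15 at 1.15, 11.1 and 1.28 CPM and Irf7 at 1.65, 5.28 and 1.496 CPM in the 3 chronic lesioned libraries. Without that library the differences were 0.21 (SE 0.52, adjusted p = 0.854) for Isg15 and -0.16 (SE 0.37, adjusted p = 0.839) for Irf7, and neither shows that the sides changed alike.

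**Figure D5:**
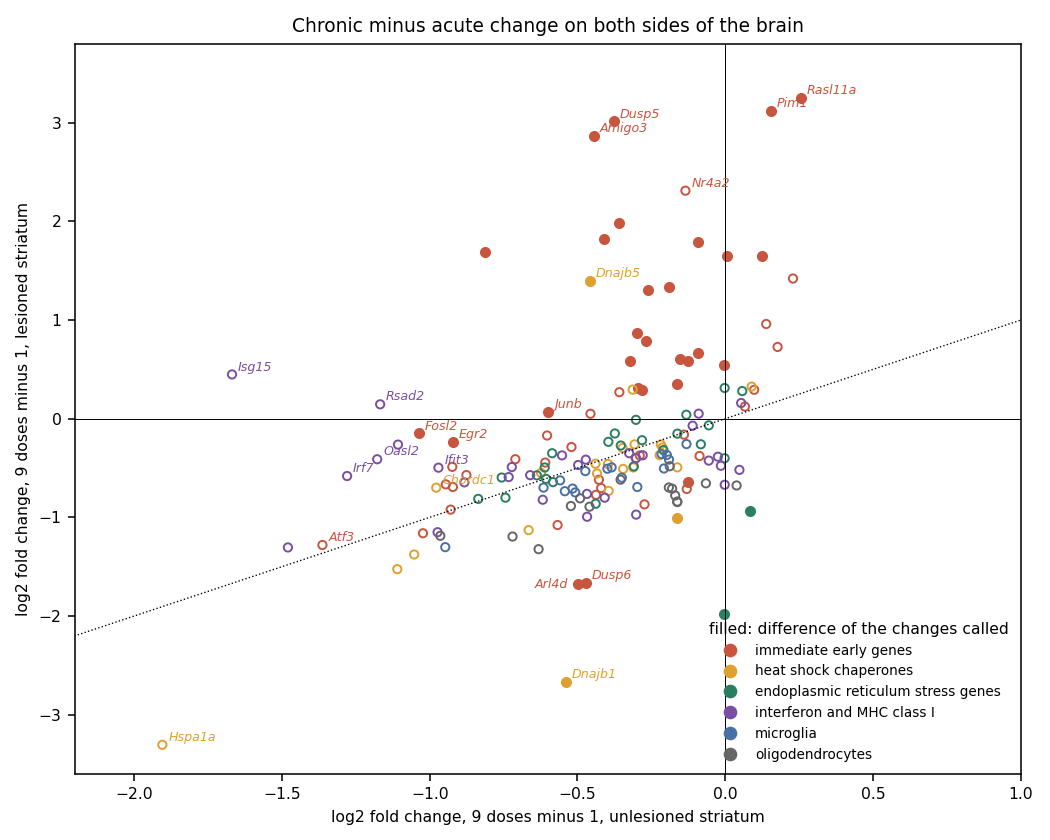
Each point is 1 gene of 6 lists, with the log2 fold change (9 doses minus 1) of the unlesioned striatum on the horizontal axis and of the lesioned striatum on the vertical axis, the dotted line marks equal change, and filled points had a called difference. Most chaperone, interferon, microglial and oligodendrocyte genes lie below 0 on both axes, whereas many immediate early genes lie above the line, such as Junb (-0.60 and 0.07), and Dusp6 (-0.47 and -1.66) lies below it.

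Among the genes that the study itself singled out, chosen in part on these libraries and so no independent evidence of direction, 18 were tested and 4 were called, all lower, namely Atf3, Egr1, Fosb and Drd2 (against 1.6% of all genes), and leaving out chronic replicate 2 gave 6 lower and 0 higher (33.3%, against 5.45%). Klf4, Trh, Npy, Lipg and Rps6ka5, the gene for Msk1, were not called, with log2 fold changes of -0.29, 0.02, 0.10, -0.38 and 0.06. For Trh, the thyrotropin-releasing hormone gene, the levels were 5.64, 5.73 and 6.66 CPM against 5.64, 7.22 and 5.41 CPM in the unlesioned striatum, and the difference from the lesioned side was 2.22 (SE 0.18, adjusted p = 4.56e-06). Tbp, which the study used as its reference transcript for PCR, read 18.6, 19.9 and 18.8 CPM against 21.6, 17.6 and 16.7 CPM and was not called (adjusted p = 0.876). Hoxa2 and Ppm1n were below the filter, at or under the floor of 3 counts in each unlesioned library.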

How the data were processed

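The deposited table held read counts per annotated transcript. According to the study's methods the authors made TruSeq RNA libraries, a kit that does not mark strand, from 0.5 µg of RNA, mapped reads to mm9 with the Genomatix Mining Station and tested triplicates with DESeq. A read was counted on each transcript it overlaps. Of 189660 transcripts, 296 name no gene (0.0485% of counts) and were left out. The authors' fold and p-value columns were not used. One transcript per symbol, the highest in mean CPM over the 6 libraries, was kept. Genes passing filterByExpr were tested with edgeR 4.0.16 (R 4.3.3, quasi-likelihood, TMM, Benjamini-Hochberg adjusted p below 0.05), and the SE is the log2 fold change over the root of F. CPM used TMM effective totals of all 12 libraries. DESeq2 1.42.0 served as an alternative, with other size factors, no filter, all transcripts, a replicate block and leave-one-out. The code was tested on simulated data. Depth, at 22065670 to 36493940 counts, sets the floor of 3 counts, which covers counting error only. Named genes are the 12 largest rises and falls at a mean of at least 1 CPM with non-overlapping groups, 6 each way without chronic replicate 2, up to 4 per list and the study's own genes. Called list members, Mag, Mbp, Hspa5 and Hspa1a, and the transcripts called in every leave-one-out fit were added after their values were seen. A few genes that meet these rules are not reported here. Members and lists were chosen with earlier results of these data known. The p-values measure the spread between these libraries. Figures were drawn with matplotlib.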

Additional observations from a re-analysis of the deposited data

Results flagged for a closer look

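For 10 genes the change between 1 and 9 doses differed between the sides of the brain, by edgeR's test of the difference over all 12 libraries, and they are given here as the 5 largest gains and 5 largest losses among genes also called in the unlesioned striatum. The gains of the lesioned over the unlesioned side, on the log2 scale, were 2.72 for Snx31, 2.24 for the collagen Col27a1, 2.08 for the zinc finger gene Plagl1, 1.86 for the chaperone Dnajb5 and 1.51 for Zfp839. The losses were -3.14 for the glutathione peroxidase Gpx6, -2.13 for the chaperone Dnajb1, -2.08 for Heatr7b1, -1.24 for the chitinase Chia and -1.19 for the Erk phosphatase Dusp6. In the unlesioned striatum, Dnajb5 and Dusp6 were called by edgeR with all 6 libraries. The other 8 were not (Snx31 was below the filter there) but were called without chronic replicate 2, and some of them under other settings too. Gpx6, for example, read 8.501, 6.14 and 7.34 CPM after 1 dose and 2.403, 5.38 and 2.45 CPM after 9 doses, with a log2 fold change of -1.60 (adjusted p = 0.00103) without that library and -4.26 on the lesioned side. Heatr7b1 overlaps Hjurp and Zfp839 overlaps Brp44l on the opposite strand, so reads from the stretches they share cannot be told apart. With groups of 3, no search for single outlying libraries was made.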

How the results depend on the processing

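The count of 545 called genes (220 higher, 325 lower) depended on the test and on single libraries. It was 1217 (513 and 704) with DESeq2, 2318 (1004 and 1314) without the filter on low counts, of which 2184 had also been tested with it, and 3366 (1251 and 2115) with all transcripts tested apart. Leaving out 1 library each gave 11 to 2238 genes, with 3 to 1109 higher and 8 to 1129 lower. Without chronic replicate 2, DESeq2 called 1981 (892 and 1089), and edgeR with the length trend removed called 2148 (898 and 1250), both chosen after seeing the data. With a replicate block the count was 264 (85 and 179). Replicate numbers do not pair acute with chronic libraries by the labels, and the correlations of same-numbered deviations were -0.037, 0.0147 and 0.0949, none above 0.1, so the block is only a hint. The 1050 differences between the sides became 1906 without the filter, 2750 with a replicate block within each treatment, and 691 (without acute unlesioned replicate 3) to 1640 (without chronic lesioned replicate 2) on leaving out 1 library. Same-numbered libraries of the 2 sides correlated at 0.223, 0.164 and 0.00326 after 1 dose and 0.273, 0.369 and 0.144 after 9 doses, so 1 of the 6 pairs was not above 0.1, and whether a number marks 1 mouse is not given by the labels. Libraries of the 2 sides with different numbers ran from -0.279 to 0.130 after 1 dose and from -0.314 to 0.117 after 9 doses. The cause of these shifts was not tested, except that the unfiltered fit tests more genes and each leave-one-out fit has fewer libraries. Igf2, Kcng4 and Pvalb, not called at 0.58, 0.73 and 0.48, were called lower without chronic replicate 2 (adjusted p = 0.00839, 0.0268 and 0.00527 by edgeR), and over the leave-one-out fits they ran from -0.74 to 0.98, -0.90 to 1.18 and -0.69 to 0.83. GC content could be given for 14375 of the 20297 genes tested (70.8%). Fits limited to these genes are not reported here, so nothing is stated about the part of GC content. With all 6 libraries, 4437 genes were at an unadjusted p below 0.05, and depth limits genes near the floor of 3 counts.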
